A study of Rattus norvegicus with 6 samples.

Results

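Transcripts of the renin-angiotensin and endothelin systems were compared between tolerated and syngeneic rat kidney grafts taken 100 days after surgery. The members were Agt, Ace, Agtr1a, Edn1, Ednra and Ednrb, found as the probes that the platform annotation gives to these genes. Of the 6 genes, 4 had a named probe (Agt, Ace, Agtr1a and Edn1, with 1 probe each), out of 5990 genes with a named probe on the array. All 4 lay above the filter on dim probes, as did 4955 of the 5990 genes. The endothelin receptor genes Ednra and Ednrb had no named probe in the annotation and were not analysed here.

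The tolerated group held 3 allogeneic grafts, LEW.1W kidneys (haplotype RT1u) from donors of 8 to 12 weeks placed in LEW.1A recipients (haplotype RT1a) that received antibodies against donor class II molecules. Native kidneys of allogeneic recipients were taken out on day 7. The syngeneic group held 3 LEW.1A kidneys placed in LEW.1A recipients, for which the labels name no antibody. Both strains share their background genes outside the MHC, the region of transplantation antigens, and recipients of both groups were LEW.1A. The effects of donor haplotype, mismatch and antibody cannot be told apart, since all 3 differed at once. For the syngeneic group no donor age and no day of nephrectomy were recorded, so whether these differed is unknown. Any effect of them could not be told apart from the others either. RNA came from sections of whole graft, 1 array per sample. Whether each group's 3 samples are from different animals is not stated, so p-values measure only the spread between these samples.

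Angiotensinogen, the product of Agt, is cut in steps, the last by angiotensin-converting enzyme (Ace), to angiotensin II, which acts on the type 1 receptor (in rodents encoded by the paralogs Agtr1a and Agtr1b) to constrict vessels and retain sodium. In the kidney, proximal tubules make angiotensinogen, and brush border peptidases break the peptides down. Endothelin-1, encoded by Edn1, is a vasoconstrictor made by endothelium and collecting duct, and acts there and on smooth muscle through Ednra and Ednrb.

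Promoter sequences are shown for the measured members found in the RefSeq table (assembly GRCr8), so that their start regions can be read beside the results. Each run is the 250 bases before the annotated start, 5′ to 3′ on the strand of the gene, at chr10:91409879-91410128 (plus strand) for Ace, chr17:34435433-34435682 (minus strand) for Agtr1a and chr17:22666688-22666937 (minus strand) for Edn1. Capitals mark matches, on either strand, to 4 searched motifs. These are TATAAA for the core promoter box, GGGCGG for the Sp1 family, AGATAA for the GATA family, and TGACTAA, which resembles the site of AP-1 factors.
Ace: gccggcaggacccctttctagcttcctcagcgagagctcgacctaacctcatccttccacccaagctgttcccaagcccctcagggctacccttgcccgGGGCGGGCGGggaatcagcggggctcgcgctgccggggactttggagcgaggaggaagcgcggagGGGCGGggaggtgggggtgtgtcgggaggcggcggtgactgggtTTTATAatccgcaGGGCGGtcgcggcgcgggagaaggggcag
Agtr1a: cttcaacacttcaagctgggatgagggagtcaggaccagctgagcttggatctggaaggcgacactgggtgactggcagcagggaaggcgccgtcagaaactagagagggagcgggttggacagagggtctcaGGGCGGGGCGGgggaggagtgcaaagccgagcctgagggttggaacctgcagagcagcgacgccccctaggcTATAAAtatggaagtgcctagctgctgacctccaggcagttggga
Edn1: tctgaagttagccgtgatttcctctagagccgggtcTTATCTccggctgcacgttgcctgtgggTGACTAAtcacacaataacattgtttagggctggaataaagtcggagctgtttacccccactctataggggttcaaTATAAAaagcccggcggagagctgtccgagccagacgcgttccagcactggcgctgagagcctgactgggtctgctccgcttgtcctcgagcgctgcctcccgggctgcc
Agt was not in the promoter table. In GRCr8 the genes lie on chromosome 10 from 91410129 to 91430246 (Ace), chromosome 17 from 34383397 to 34435523 (Agtr1a) and from 22660799 to 22666687 (Edn1), and chromosome 19 from 69426540 to 69447017 (Agt). The start used for Agtr1a by the promoter table lies inside the outer bound of that gene. The letters TATAAA were in all 3 sequences, against 12.9% of 33469 rat promoters of the same length. In Agtr1a they lay 45 to 40 bases before the start and in Edn1 110 to 105 bases before it. In Ace they lay on the opposite strand, 42 to 37 bases before the start. The letters GGGCGG were found 4 times in Ace and 2 times in Agtr1a, with overlapping matches counted, and not in Edn1, against 30.5% of all promoters. The Edn1 sequence alone of the 3 held AGATAA (on the opposite strand, 10.3% of all promoters) and TGACTAA (2.0%). The motifs TGANTCA (an AP-1 site), GTTAAT (an HNF1 half-site) and CCAAT were searched as well and had no match in the 3 sequences. GC content was 69.2% in Ace, 60.8% in Agtr1a and 56.4% in Edn1, and the median over all promoters was 51.2%. These matches describe the letters only, and no factor binding was measured.

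Levels are log2 intensities after quantile normalization, and changes are tolerated minus syngeneic with the standard error of the limma fit. Deposited raw intensities had array medians of 745.1 to 991.1 in the tolerated and 421.4 to 706.8 in the syngeneic group. Arrays of 1 group correlated at 0.948 to 0.967 over the probes, and arrays of different groups at 0.878 to 0.945. The syngeneic array closest to the tolerated ones was replicate 3, with 33.2 on the first principal component against 112.3 and 108.0 for syngeneic replicates 1 and 2 and -100.8 to -75.3 for the tolerated arrays. In all, 5075 of 20142 tested probes (25.2%) differed at a Benjamini-Hochberg adjusted p under 0.05, and 49.1% of them were higher in tolerated grafts (37.5% under median scaling, by which the median change went from -0.02 to -0.15). Of the kidney cell markers, Slc34a1 of the proximal tubule, Nphs1 of podocytes and Aqp2 of the collecting duct were bright. Their mean levels were above those of 99.8%, 90.8% and 95.2% of probes. Other markers of podocytes and collecting duct were dimmer, among them Wt1 (53.2%), Cd2ap (49.7%) and Slc4a1 (50.2%), and Synpo lay under the filter.

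Agt and Ace were lower in tolerated grafts, Agtr1a was lower without passing the test, and Edn1 did not differ beyond the spread. Thus 2 of the 4 measured members fell and 0 rose at adjusted p under 0.05. By the same test 32.7% of all named genes differed, 17.2% lower and 15.5% higher. At unadjusted p under 0.05 in limma 3 members were lower and 0 higher. The share of all named genes at that looser threshold was not computed, and it cannot be below the 17.2% lower and 15.5% higher. With 4 genes, these counts are a description of the members.

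Agt, the precursor of all angiotensin peptides (probe 22024738), was read at log2 levels of 11.72, 10.65 and 11.92 in the tolerated grafts 1 to 3, against 14.02, 14.18 and 14.11 in the syngeneic grafts 1 to 3. All tolerated grafts lay below all syngeneic grafts, and tolerated replicate 2 was lowest. The group means were 11.43 ± 0.68 and 14.11 ± 0.08 (SD, n = 3 each), so the syngeneic grafts were far more alike than the tolerated ones. Agt fell 6.39-fold, with a 95% interval of 3.49 to 11.7 (log2 change -2.68 ± 0.35, limma adjusted p = 0.00781). Of all tested probes, 2.1% had a change more negative than this. Even the raw intensities, before normalization, parted the groups, at 4009, 1748 and 5940 in tolerated and 11286, 15900 and 20672 in syngeneic replicates 1 to 3. Agt passed the test in each of 13 alternative fits, with changes of -2.93 to -2.32 and adjusted p up to 0.0406.

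Ace, the peptidase that forms angiotensin II (probe 21301215), was measured at 10.61, 10.57 and 10.75 in tolerated and at 11.66, 11.76 and 11.35 in syngeneic replicates 1 to 3. The groups did not overlap, as was the case for 55.7% of all named genes and 47.3% of all tested probes, and the lowest syngeneic value was that of replicate 3. Means were 10.65 ± 0.10 and 11.59 ± 0.21 (SD, n = 3 each). The level of Ace fell 1.93-fold (95% interval 1.43 to 2.6, log2 change -0.95 ± 0.17, limma adjusted p = 0.0164). Raw intensities of 1867, 1656 and 2666 in tolerated and of 1970, 2702 and 2961 in syngeneic replicates overlapped, so the difference rests on the scaling between arrays, and it was -0.91 (adjusted p = 0.0206) when arrays were scaled to equal medians. With 1 array left out, Ace passed only without syngeneic replicate 3 (-1.06, adjusted p = 0.00928). It missed the threshold in the 5 other such fits, with adjusted p of 0.0583, 0.0584 and 0.0534 without tolerated replicates 1 to 3 and of 0.06 and 0.062 without syngeneic replicates 1 and 2.

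Agtr1a encodes the main type 1 angiotensin receptor of the rat kidney (probe 21329950). Its levels were 10.33, 9.98 and 9.95 in tolerated and 11.20, 11.69 and 10.32 in syngeneic replicates 1 to 3. Syngeneic replicates 1 and 2 stood above all tolerated grafts, while syngeneic replicate 3 was level with tolerated replicate 1. With means of 10.09 ± 0.21 and 11.07 ± 0.69 (SD, n = 3 each), the log2 change was -0.98 ± 0.37, a 1.98-fold lower level (95% interval 1.05 to 3.71) that did not pass (limma adjusted p = 0.106). Without syngeneic replicate 3 the change was -1.34 and passed (adjusted p = 0.016), without syngeneic replicate 2 it was -0.68 (adjusted p = 0.236), and over all 13 alternatives adjusted p ran from 0.016 to 0.236. Before normalization the intensities were 1528, 1121 and 1501 in tolerated and 1406, 2549 and 1404 in syngeneic replicates, and the groups overlapped.

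Edn1, the gene of endothelin-1 (probe 21421066), was at 10.28, 9.43 and 9.94 in tolerated grafts 1 to 3 and at 10.05, 9.14 and 9.43 in syngeneic grafts 1 to 3. The groups overlapped widely, and the highest and lowest values of each group were farther apart than the means of 9.88 ± 0.43 and 9.54 ± 0.46 (SD, n = 3 each). The log2 change of 0.34 ± 0.33 did not pass (limma adjusted p = 0.49). Its 95% interval of -0.47 to 1.15 still allows a level from 0.723 to 2.22 times the syngeneic one, so the arrays do not show that Edn1 was equal. Before normalization the intensities did not overlap, at 1470, 769 and 1481 in tolerated and 640, 466 and 729 in syngeneic replicates. No alternative made it pass, with changes of 0.14 to 0.60 and adjusted p of 0.258 to 0.811.

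**Figure D1:**
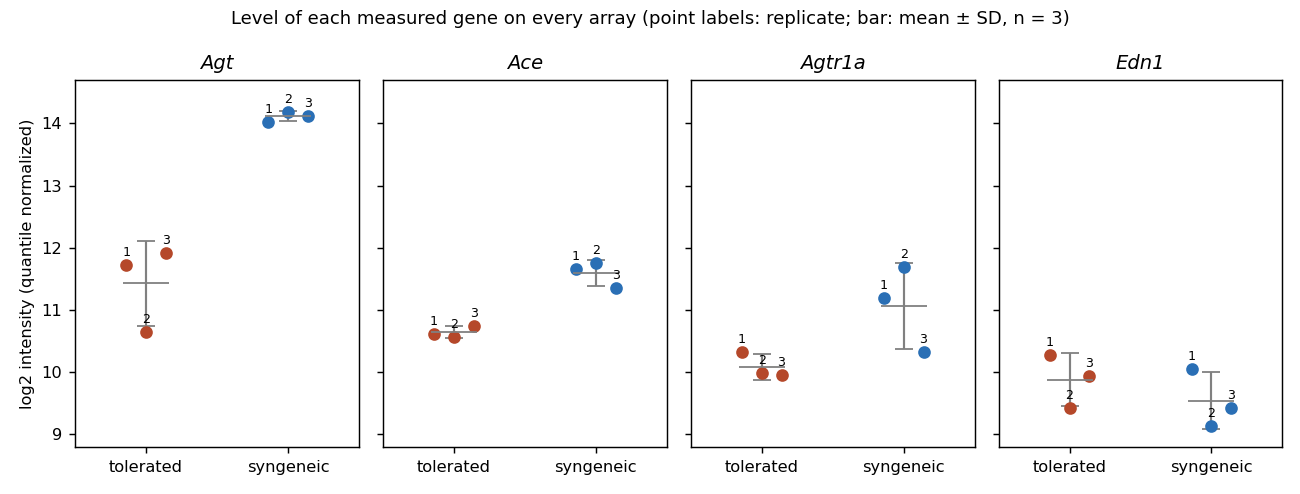
Log2 intensity after quantile normalization (vertical axis) of the 4 measured genes on each array, with points numbered by replicate and bars for the mean ± SD of 3 arrays. The 3 tolerated points of Agt (10.65 to 11.92) and Ace (10.57 to 10.75) lie below all syngeneic points, while the groups meet for Agtr1a and Edn1.

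Whether the 3 angiotensin genes changed unequally was asked of the log2 difference between 2 genes within each array, over 3 pairs. Agt minus Ace was 1.11, 0.08 and 1.17 in tolerated and 2.36, 2.42 and 2.76 in syngeneic replicates 1 to 3. The groups did not overlap, and the mean difference was lower by 1.73 on the log2 scale in tolerated grafts (-1.73, exact permutation test, two-sided, p = 0.1, adjusted over the pairs 0.15). This is the smallest p that the permutation test can give for 3 against 3 arrays, so this test could not pass a threshold of 0.05. For Agt minus Agtr1a the values were 1.39, 0.67 and 1.97 against 2.82, 2.5 and 3.79, again without overlap, a difference of -1.69 (exact permutation p = 0.1, adjusted 0.15). Ace minus Agtr1a was 0.56 ± 0.26 in the tolerated group and 0.52 ± 0.48 in the other (SD, n = 3 each), which differ by 0.03 (exact permutation p = 1). Levels of different probes are not comparable, so the differences within an array have no meaning of their own, and only their shift between the groups was compared. That shift parted the groups for Agt against Ace and against Agtr1a, and the groups overlapped for Ace against Agtr1a. Of single named genes, 55.7% parted the groups, and the share over gene pairs was not computed.

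The profile of each member over the 6 arrays was set against those of 4954 other named genes, by the root mean square difference of log2 levels centred on each gene's own mean. Nearest to Agt were Slc6a18, an amino acid transporter gene of the proximal tubule (0.14), the sulfotransferase gene Sult1c2 (0.15) and Dpyd, which encodes a pyrimidine-degrading enzyme (0.15), where the median over all genes was 1.42. Slc6a18 had levels of 13.06, 12.24 and 13.33 in tolerated and of 15.53, 15.34 and 15.52 in syngeneic replicates 1 to 3, and like Agt it was lowest in tolerated replicate 2. Nearest to Ace were Stxbp5 (0.04), Cmtm8 (0.05) and Mapk8ip1 (0.05), with a median of 0.66 over all genes. For Agtr1a they were G4 (0.04), the proton pump subunit gene Atp6v1b2 (0.13) and the amino acid transporter subunit gene Slc3a2 (0.13), with a median of 0.77. The gene G4 stood at 10.63, 10.16 and 10.23 in tolerated and at 11.41, 11.96 and 10.55 in syngeneic replicates 1 to 3, with the same low syngeneic replicate 3. Edn1 was nearest to the lipid droplet gene Plin2 (0.13), Dnase1l3 (0.14) and Smptb (0.15), with a median of 0.62. Likeness over 6 arrays is a description, and many genes that parted the groups share such a profile.

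Around the members, the renin-angiotensin list held 21 genes, of which 14 had a named probe and 12 were tested. Of these 12, 6 fell (Anpep, Prep, Agt, Enpep, Mme and Ace) and 1 rose (Cma1), against 17.2% lower and 15.5% higher among all named genes. The list median was -0.97, and that of all named genes was -0.04. Genes of the list without a named probe included Atp6ap2, Agtrap, Prcp, Nln and Ctsg. With 1 array left out, 4 to 8 of the 12 fell and 1 rose. Agt, Anpep, Prep, Enpep and Cma1 passed in each of these 6 fits.

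Of the genes of peptidases that break angiotensins down, Anpep, Prep, Enpep and Mme fell, and Thop1 and Ctsa did not pass. Anpep, aminopeptidase N of the brush border, stood at 13.46, 12.72 and 13.74 in tolerated and at 16.73, 16.83 and 16.93 in syngeneic replicates 1 to 3. It fell 11.5-fold (95% interval 7.03 to 18.9, log2 change -3.53 ± 0.29, limma adjusted p = 0.0038). The gene of prolyl endopeptidase, Prep, which cleaves angiotensin I in vitro, stood at 13.79, 13.88 and 14.26 in tolerated and at 16.61, 16.87 and 16.74 in syngeneic replicates, and fell 6.78-fold (-2.76 ± 0.19, adjusted p = 0.00363). Enpep, aminopeptidase A, which turns angiotensin II into angiotensin III, stood at 15.93, 15.37 and 15.95 against 18.02, 18.05 and 18.15 and fell 5.01-fold (-2.33 ± 0.21, adjusted p = 0.00412). For each of these 3 genes the groups were far apart, and every syngeneic value lay over 2 units above every tolerated one.

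Mme, the gene of neprilysin, which degrades angiotensins and endothelin-1, stood at 13.77, 13.82 and 14.39 in tolerated and at 15.00, 15.11 and 15.55 in syngeneic replicates. It fell 2.34-fold (-1.23 ± 0.25, limma adjusted p = 0.0216). Leaving out tolerated array 1 or 2, or syngeneic array 1 or 2, ended the call of Mme, with adjusted p of 0.0713, 0.0711, 0.0524 and 0.0666. Thop1, another oligopeptidase gene, had a change of -0.35 ± 0.16 (adjusted p = 0.155). Ctsa, the lysosomal carboxypeptidase cathepsin A, had -0.75 ± 0.25 (adjusted p = 0.0797), and it passed at -1.23 (adjusted p = 0.0401) with arrays scaled to equal medians and at -0.96 (adjusted p = 0.0296) without syngeneic replicate 3.

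Cma1, the gene of chymase, a mast cell protease that forms angiotensin II in humans, was the member of the list that rose. Its levels were 13.02, 12.93 and 12.62 in tolerated and 10.36, 10.37 and 10.66 in syngeneic replicates 1 to 3. The groups were parted by more than the range within either. Cma1 rose 5.25-fold (95% interval 3.82 to 7.22, log2 change 2.39 ± 0.19, limma adjusted p = 0.00363). A list of 11 mast cell genes, chosen after the value of Cma1 was seen and holding Cma1 itself, had 7 tested genes with a median change of 0.62, of which only Cma1 passed with all arrays and 3 passed without syngeneic replicate 3. Its mean level was 9.61 to 10.01 in tolerated and 8.53 to 9.61 in syngeneic grafts. Mcpt1, another mast cell protease gene, had 2.12 ± 1.34 (limma adjusted p = 0.296). Its syngeneic replicate 3, at 12.34, lay above every tolerated value (10.29, 12.19 and 11.99). The tryptase gene Tpsab1 had 1.13 ± 0.49 (adjusted p = 0.147). Of the other genes, Hdc had 0.62 ± 0.31 (adjusted p = 0.19) and Ms4a2 0.20 ± 0.45 (adjusted p = 0.778). The IgE receptor gene Fcer1a had -0.10 ± 0.53 (adjusted p = 0.913) and Gata2 -0.41 ± 0.21 (adjusted p = 0.207). The part of mast cells in the rise of Cma1 was not tested.

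Among the other angiotensin receptors, Agtr1b, the near-identical paralog of Agtr1a, was at 9.62, 9.70 and 9.52 in tolerated grafts 1 to 3 and at 10.01, 10.84 and 10.50 in syngeneic grafts 1 to 3. The groups did not overlap, but the log2 change of -0.84 ± 0.24 did not pass (limma adjusted p = 0.0533). It passed without syngeneic replicate 1 (-1.07, adjusted p = 0.0426) and with the filter set at the median level (adjusted p = 0.0265). The probe sequences were not used here, so signal shared between the 2 paralogs cannot be told apart. Agtr2, the type 2 receptor, lay under the filter, at 6.64 to 7.87 in tolerated and 7.63 to 7.79 in syngeneic grafts. Mas1, a receptor for a shorter angiotensin, lay under the filter on both of its probes, which differed in sign (-1.38 and 0.40 without a filter), and no direction is drawn from them. Lnpep, the angiotensin IV binding aminopeptidase, had 0.17 ± 0.27 (adjusted p = 0.689) with no stable sign, since it was -0.07 under median scaling, -0.03 without tolerated replicate 1 and 0.37 without syngeneic replicate 2.

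In the endothelin list, 6 of 10 genes had a named probe and all 6 were tested. The 1 gene that fell was Mme, shared with the angiotensin list, and 0 rose by limma. At the same adjusted threshold 17.2% of all named genes fell and 15.5% rose. At unadjusted p under 0.05, 2 of the list were higher and 2 lower. The share among all named genes was not computed there and cannot be below the adjusted shares. The list median was 0.01. Neither gene of its converting enzymes passed. Ece1, which forms endothelin-1 from its precursor, stood at 12.54, 12.69 and 12.39 in tolerated and at 11.98, 11.96 and 12.17 in syngeneic replicates 1 to 3, groups that did not overlap. The change of Ece1 was 0.51 ± 0.16 (limma adjusted p = 0.0694), and it passed with the filter at the median level (adjusted p = 0.0291) and with a variance trend (adjusted p = 0.039). Ece2 had 0.57 ± 0.22 (adjusted p = 0.109), and its change was 0.40 under median scaling. Furin, a protease that cuts the endothelin precursor, had -0.43 ± 0.15 (adjusted p = 0.0887), but -0.96 (adjusted p = 0.0342) with arrays scaled to equal medians. It also passed with the stricter filter (adjusted p = 0.0373) and with a variance trend (adjusted p = 0.026). Edn2, a second endothelin gene, lay close to the filter threshold of 7.76, at 7.47 to 8.03 in tolerated and 7.68 to 8.27 in syngeneic grafts, and its change was -0.31 ± 0.25 (adjusted p = 0.398), but -0.66 (adjusted p = 0.102) under median scaling and -0.50 without tolerated replicate 2. Probes for Edn3 and Kel were not named.

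**Figure D2:**
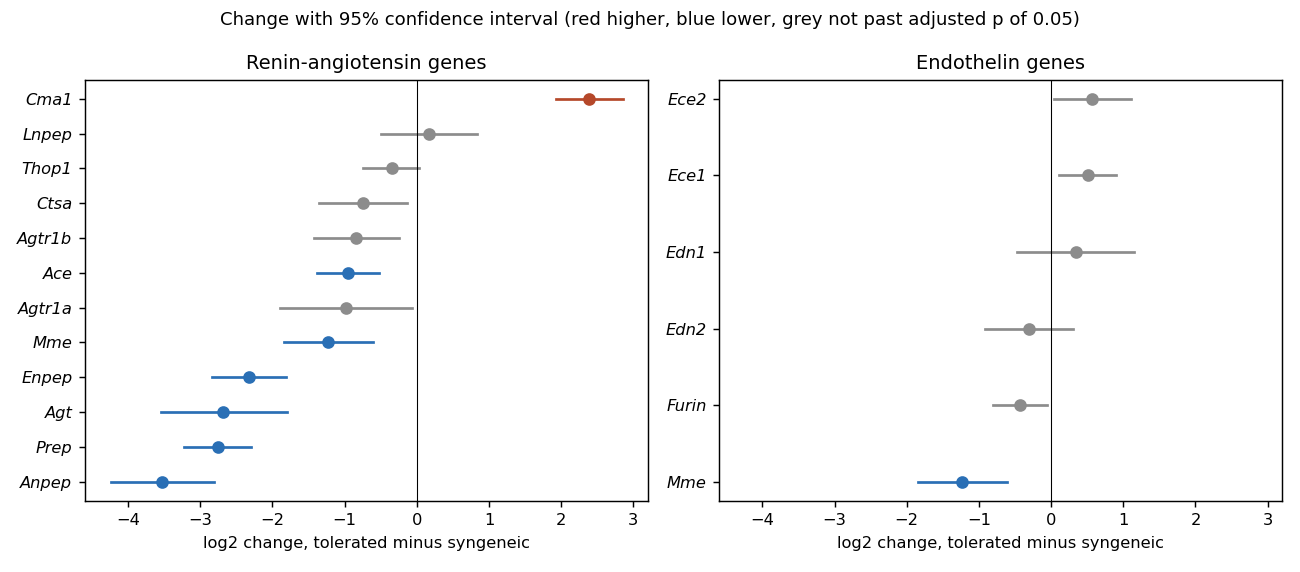
Log2 change, tolerated minus syngeneic (horizontal axis), with 95% confidence interval for the 12 tested renin-angiotensin genes and the 6 tested endothelin genes. Agt and most peptidase genes of the renin-angiotensin list lie on the left, and Cma1, at 2.39, is the only gene called higher. Lnpep (0.17), Edn1 (0.34), Ece1 (0.51) and Ece2 (0.57) also lie on the right. In grey, 5 of the 6 endothelin genes did not pass.

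The cell type markers of the same arrays are given beside these results. For each count with all arrays, the share among all named genes was 17.2% lower and 15.5% higher. All 12 tested proximal tubule genes fell, with a median change of -2.53, and their mean level was 13.46 to 14.27 in tolerated and 16.42 to 16.85 in syngeneic grafts. Agt, Ace, Anpep, Enpep and Mme, which proximal tubules express, moved in the same direction as this list, and the part of these cells in the changes was not tested. In tissue sections, fewer cells of a type and less RNA per cell cannot be told apart. With 1 array left out, 9 to 12 of the proximal tubule genes fell.

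Of 7 endothelial genes, 0 passed in either direction by limma, and the median was 0.02. At unadjusted p under 0.05, 1 was higher and 1 lower, and the share among all named genes was not computed there. The mean level was 11.96 to 12.48 in tolerated and 12.24 to 12.42 in syngeneic grafts. Without syngeneic replicate 3, 1 endothelial gene fell. Among 8 collecting duct genes, Slc26a4, an anion exchanger gene of intercalated cells, fell (-1.64 ± 0.34, adjusted p = 0.0217, lost without any 1 tolerated replicate or syngeneic replicate 2), and the list median was -0.04. Edn1, which endothelium and collecting duct make, did not pass either.

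Smooth muscle, mesangial and pericyte genes, from cells that carry type 1 angiotensin and endothelin receptors, had 4 of 7 higher and 0 lower by limma (0 lower at unadjusted p under 0.05 as well), with a median of 1.26. They were led by Tagln (2.03 ± 0.27), which passed with any 1 array left out, and by Des (1.62 ± 0.32), Cnn1 (1.47 ± 0.27) and Pdgfrb (1.26 ± 0.34), which did not. With 1 array left out, 1 to 4 of the 7 rose (1 without tolerated replicate 1 or 3, and 2 without tolerated or syngeneic replicate 2). Agtr1a and Agtr1b, which these cells express, had changes of the opposite sign that did not pass.

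Agt is also a main product of liver, and liver transcripts stood apart on 1 array. Each of 21 tested liver and plasma protein genes was highest in syngeneic replicate 1, where their mean level was above that of the other syngeneic grafts (the syngeneic range was 11.58 to 13.73, the tolerated range 9.64 to 10.21). Agt was at 14.02, 14.18 and 14.11 in syngeneic replicates 1 to 3, and its change was -2.68 both with and without replicate 1. The mean of the liver list also lay above the tolerated range in syngeneic replicates 2 and 3, at 11.58 and 11.89. The part of liver transcripts in the Agt difference was not tested. Of the liver list 8 genes fell, and Alb, its defining member, stood at 6.55 to 7.70 in tolerated grafts, under the filter threshold.

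Leukocyte genes were higher in tolerated grafts, with 9 of 9 macrophage and dendritic cell genes rising (5 without tolerated replicate 1 or 3, and 6 to 9 without another array) at mean levels of 16.63 to 16.79 against 12.83 to 14.58 in syngeneic grafts. T cell genes had 6 of 8 rising, but 0 without any 1 of the tolerated replicates or syngeneic replicate 1 and 1 without syngeneic replicate 2. Fibroblast genes had 4 of 5 rising (2 without tolerated replicate 3). Podocyte genes had 1 of 5 lower, near the 17.2% of all named genes. This gene, Podxl (-0.94 ± 0.24, limma adjusted p = 0.0388), was lost in 5 of the 6 fits with 1 array left out. It kept its call only without syngeneic replicate 3. The part of these cells in the results above was not tested.

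**Figure D3:**
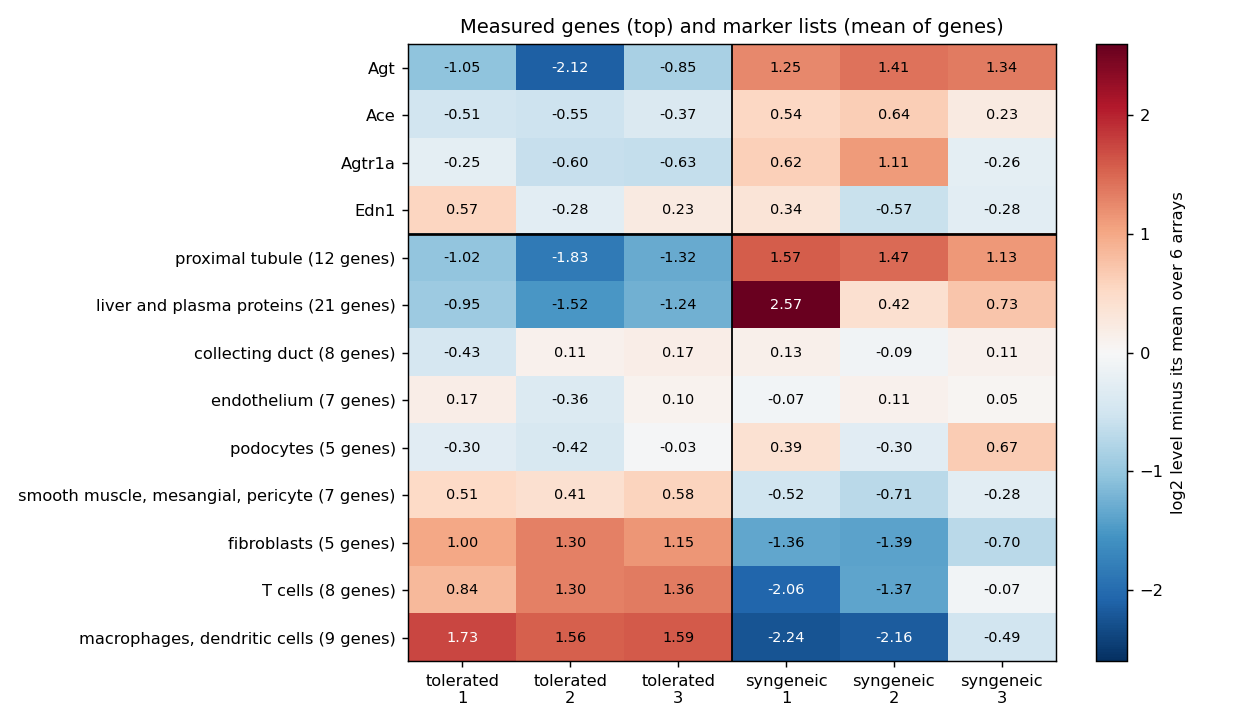
Log2 level minus its mean over the 6 arrays (colour and printed values) for the 4 measured genes and for the mean of each marker list, by array. Agt, Ace, the proximal tubule list and the liver list lie below their means on every tolerated array and above them on every syngeneic array. This pattern of signs follows largely from the group difference and does not tie the genes to the lists. The liver list is highest in syngeneic replicate 1, and the T cell and macrophage lists of syngeneic replicate 3 lie between the groups.

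Genes known to be induced by angiotensin II or endothelin-1 were mostly higher, although the ligands and receptors measured here were lower or did not pass. Of 14 tested genes 11 rose and 1 fell, against 15.5% and 17.2% of all named genes, with a list median of 2.32. Macrophages are known to make several of its products (Cybb, Ncf1, Spp1, Ccl2), the 9 macrophage and dendritic cell markers rose as given above, and their part in the counts of this list was not tested. Ccl2, a monocyte chemokine, had 3.22 ± 0.69 (limma adjusted p = 0.0239), and Ncf1, an NADPH oxidase subunit of phagocytes, had 3.10 ± 0.64 (adjusted p = 0.0217). Both were lost without any 1 tolerated replicate or syngeneic replicate 2, and Ncf1 also without syngeneic replicate 1. The matrix gene Fn1 stood at 17.09, 17.30 and 17.02 in tolerated and at 13.62, 13.89 and 14.96 in syngeneic replicates 1 to 3, and rose by 2.98 ± 0.37 (adjusted p = 0.00664). The groups of Fn1 did not overlap, and it passed with any 1 array left out.

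Nox4, the oxidase gene of renal tubules, went the other way. It stood at 7.93, 8.19 and 9.19 in tolerated and at 12.50, 13.18 and 11.90 in syngeneic replicates 1 to 3, and fell by 4.09 on the log2 scale (-4.09 ± 0.46, adjusted p = 0.00581), also with any 1 array left out. Of the other members, Egr1 and Il6 did not pass. Leaving out 1 array gave 3 risen genes of this list (tolerated replicates 1 and 2 and syngeneic replicate 2), 4 without tolerated replicate 3, 6 without syngeneic replicate 1 and 10 without syngeneic replicate 3.

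Signalling genes below Gq-coupled receptors, the class to which the angiotensin and endothelin receptors belong, had 5 of 18 higher and 0 lower by limma. Their median was 0.48, and at the same adjusted threshold 15.5% of all named genes were higher and 17.2% lower. At unadjusted p under 0.05, 10 of the list were higher and 2 lower. The share among all named genes was not computed there and cannot be below the adjusted shares. Arrb2, the arrestin that uncouples receptors, stood at 14.06, 14.09 and 13.98 in tolerated and at 11.40, 11.60 and 12.69 in syngeneic replicates 1 to 3 and rose by 2.15 ± 0.36 (adjusted p = 0.0133). Rgs2, an inhibitor of Gq, rose by 1.56 ± 0.26 (adjusted p = 0.013), and the receptor kinase gene Grk2 rose by 1.32 ± 0.28 (adjusted p = 0.0242). The calcium channel gene Itpr3, which acts in the forward direction, rose by 1.31 ± 0.32 (adjusted p = 0.034). In each of these 4 genes syngeneic replicate 3 was the syngeneic value nearest to the tolerated ones. Arrb2 and Rgs2 were lost only without syngeneic replicate 2 (adjusted p = 0.053 and 0.0532), and Grk2 and Itpr3 in each fit with 1 array left out but that without syngeneic replicate 3. The count of risen genes was 0 without syngeneic replicate 2, 6 without syngeneic replicate 3 and 2 in each of the other such fits.

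The aldosterone response, which angiotensin II drives through the adrenal gland, had 1 of 8 genes higher and 0 lower by limma. At unadjusted p under 0.05, 0 were lower as well, and the list median was -0.22. Among all named genes 15.5% were higher and 17.2% lower by the adjusted test, so the 1 higher gene was near that share. Tsc22d3, a gene induced by glucocorticoids and aldosterone, had 0.60 ± 0.15 (adjusted p = 0.0355), and lost the call with any 1 array left out. Neither the mineralocorticoid receptor gene Nr3c2 (-0.51 ± 0.28, adjusted p = 0.231) nor the sodium channel subunit genes Scnn1a, Scnn1b and Scnn1g passed.

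Of 26 genes of other vasoactive systems, 6 were higher and 5 lower, near the 15.5% and 17.2% of all named genes, and the median was 0.16. Nppc, the gene of C-type natriuretic peptide, a vasodilator, stood at 7.51, 7.22 and 7.85 in tolerated and at 11.79, 11.98 and 11.36 in syngeneic replicates 1 to 3, so that its tolerated level was dim. Nppc fell (limma adjusted p = 0.00363), but it passed the filter on dim probes only through the syngeneic group, and with signal over background unknown its change of -4.18 ± 0.25 has no certain size. Nos2, the inducible nitric oxide synthase, rose by 3.65 ± 0.61 (adjusted p = 0.0135), from 7.39, 7.82 and 9.71 in syngeneic to 11.99, 11.71 and 12.17 in tolerated replicates 1 to 3, but was lost without tolerated replicate 3 or syngeneic replicate 2. Klk1, tissue kallikrein, which forms vasodilator kinins, fell (-3.51 ± 0.56, adjusted p = 0.0122), as did the adrenergic receptor gene Adra1b (-1.93 ± 0.32, adjusted p = 0.0129). Nppc, Klk1 and Adra1b passed with any 1 array left out. Over these fits 2 to 6 genes of the list rose and 3 to 4 fell. The counts were 2 risen without tolerated replicate 1 or 3 or syngeneic replicate 2, 3 risen without tolerated replicate 2, and 3 fallen in each fit but that without syngeneic replicate 3.

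**Figure D4:**
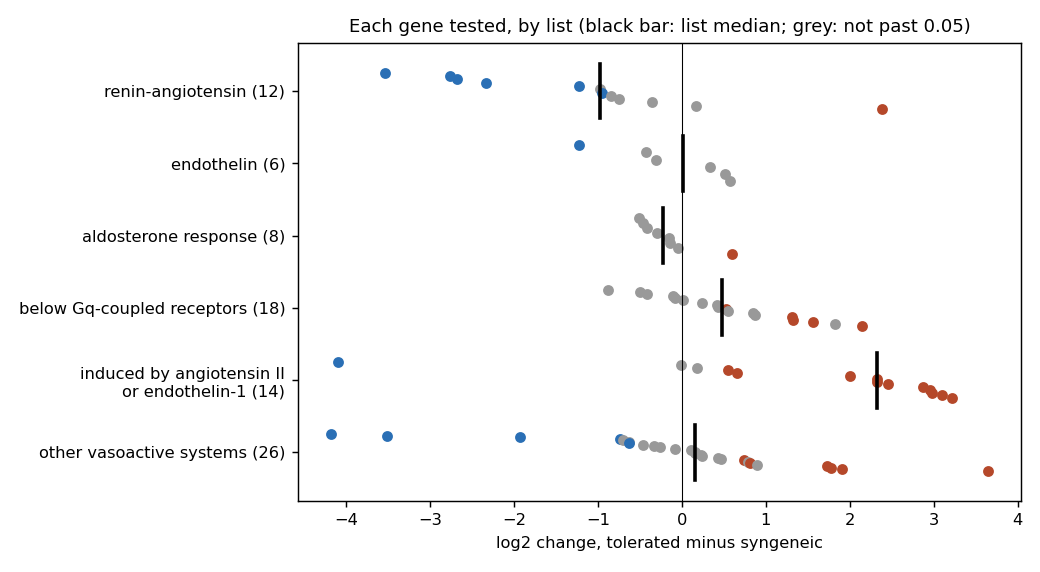
Log2 change, tolerated minus syngeneic (horizontal axis), of each tested gene in 6 lists (number tested in brackets), coloured where adjusted p was under 0.05, with black bars at the list medians. The renin-angiotensin median is -0.97, the endothelin median 0.01 and that of the induced genes 2.32.

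Across settings, Agt was the measured member whose call did not depend on a processing choice or on 1 array, Ace was called in 7 of 13 alternatives, Agtr1a in 1 and Edn1 in 0.

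**Figure D5:**
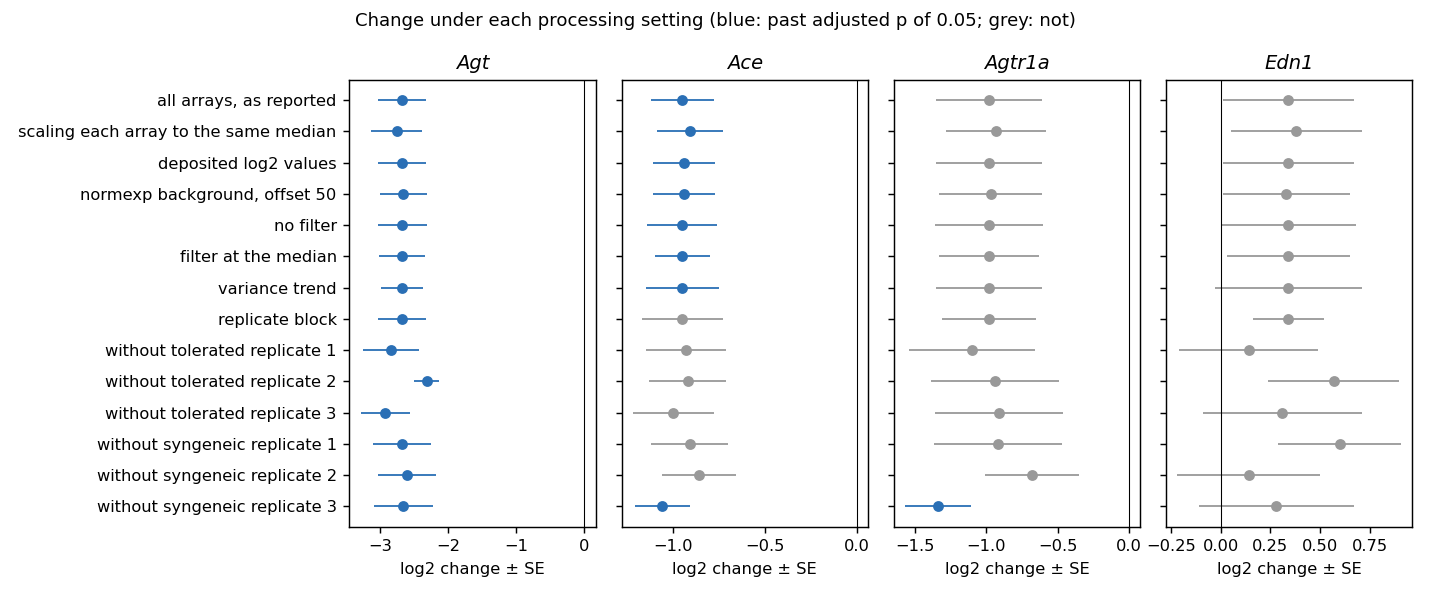
Log2 change ± SE (horizontal axis, scaled separately for each gene) of the 4 measured genes under the reported and 13 alternative settings, blue where adjusted p was under 0.05 and grey where not. Agt is blue throughout, from -2.93 to -2.32, and Agtr1a is blue only without syngeneic replicate 3.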

How the data were processed

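Total RNA of 6 rat kidney grafts was hybridised to Applied Biosystems rat genome survey arrays (26857 probes), per the labels' protocols. The authors deposited raw probe intensity for each array and a matrix of log2 values with a median of 9.36 in every column, which ranked probes as the raw columns did. For scanner software, background subtraction, detection calls and normalization method nothing is given in the sources used here, so signal over background is unknown.

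Raw intensities were taken to log2 and quantile normalized, with no further background correction. Probes with a mean log2 level above the lower quartile (7.76) were tested (20142), with limma 3.58.1 in R 4.3.3, two-sided, without covariates, Benjamini-Hochberg adjusted over all tested probes at 0.05. The fit was run on simulated arrays with independent noise and known changes in a small part of the probes. That checks the code only and does not bear on the calls made here, where far more probes differed. Of the probes, 6104 had 1 gene symbol (updated through Entrez identifiers to RefSeq GRCr8), 70 several and 20683 none listed. Where a gene had several tested probes, the brightest was used. Genes were named by rule: the members, all tested genes of the 2 pathway lists, leading genes of other lists and the 3 nearest profiles. Members and lists were chosen with earlier results of these data known. Cybb, Spp1, the mast cell list and its named genes other than Cma1, and the promoter motifs were chosen after values were seen. So were Egr1, Il6, Nr3c2, Scnn1a, Scnn1b and Scnn1g as examples. Permutation tests used scipy 1.17.1.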

Additional observations from a re-analysis of the deposited data

How the results depend on the processing

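The changes of Agt, Agtr1a and Edn1 kept their direction under all 13 alternatives, as did that of Ace. Agt kept its call throughout, with -2.93 to -2.32 when 1 array was left out. Ace (-0.95) missed the threshold in the fit with the replicate block (adjusted p = 0.0682), and with 1 array left out it ranged from -1.06 to -0.86. Agtr1a ranged from -1.34 to -0.68 with 1 array left out, passing only without syngeneic replicate 3. The number of probes that differed was 1886 with the replicate block, against 5075 without it, and 1610 (without syngeneic replicate 2) to 6046 (without syngeneic replicate 3) with 1 array left out, fits that have fewer samples. No sign of pairing by replicate number was seen. Deviations from the group means of same-numbered arrays correlated at -0.01, 0.01 and 0.05, and 2 of 6 arrays correlated best with their own number. With 3 arrays per group these values cannot settle whether the samples were paired. The endothelin list had 1 changed gene, 2 with median scaling, 3 with the stricter filter, 3 with a variance trend, and 0 to 1 with 1 array left out. The renin-angiotensin list had 5 to 9. The difference of Ace minus Agtr1a, 0.03, ranged from -0.18 to 0.28 with 1 array left out and so had no stable sign. Averaging probes could change nothing for the members, which have 1 probe each. The cause of these shifts was not tested, and the number of arrays and the unknown signal over background limit what dim probes can show.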
